A study of Mus musculus with 63 samples.

Results

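Gabra5, Gabrb2, Gabrg3 and Gabrd are 4 subunit genes of the GABA-A receptor that lie outside the chromosome 5 cluster of Gabra2. They were chosen by symbol, and they are 4 of the 55401 genes in the count table and 4 of 19 GABA-A subunit genes listed for this work. Of those 19 subunits, 15 passed the filter on low counts, and all 4 described here were among them. The RNA was that of the dorsal hippocampus, taken in adolescence from DBA/2J mice (32 libraries) and C57BL/6J mice (31 libraries). Males and females of each strain were injected once with ethanol at 1.5 g/kg, or with saline, and underwent fear conditioning (FC) or did not (noFC). These factors make 16 groups of 4 libraries each, except FC males of C57BL/6J given saline, with 3. Both strains are inbred lines and no transgene is involved, and each library was treated as 1 animal because the labels name no pooling and no repeated sampling; if some shared an animal, the p-values would cover less than the spread between animals.

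GABA-A receptors are chloride channels opened by GABA, the main inhibitory transmitter of the adult brain, and each is built from several subunits around a central pore. Alpha subunits together with a neighbouring beta subunit form the GABA binding site, gamma subunits give the receptor its benzodiazepine site and its place at synapses, and the delta subunit takes the place of gamma in receptors outside synapses. In the hippocampus the alpha5 subunit, encoded by Gabra5, is abundant in pyramidal cells and carries much of their tonic inhibition, while the delta subunit, encoded by Gabrd, serves tonic inhibition in dentate gyrus granule cells. Gabrb2 encodes beta2 and Gabrg3 encodes gamma3, a sparse gamma subunit.

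On the mouse build GRCm38, Gabra5 spans chr7:57407672-57510059 on the minus strand and Gabrg3 spans chr7:56716465-57387188 on the same strand, next to it. Gabrb2 spans chr11:42419757-42629028 on the plus strand. Gabrd spans chr4:155384980-155398112 on the minus strand. The antisense gene Gm9962 shares 148 of the 2974 exon bases of Gabra5. The strand setting used for counting is not given in the sources used here, so reads on those 148 bases cannot be assigned to a strand.

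Sequences are shown for transcripts of the members whose shares were compared between the strains. The first pair is from Gabrg3. Transcript Gabrg3-201 ends in an exon of its own (chr7:57178382-57179737, minus strand), which lies inside intron 3 of the main transcript Gabrg3-202 and leaves a reading frame of 145 codons, against 467 in Gabrg3-202. Its 168 coding bases with the stop codon in capitals (chr7:57179570-57179737) are followed by exon 4 of Gabrg3-202 (chr7:56984943-56985163), which follows the shared exon 3 in the full transcript.
Gabrg3-201 exon 4, coding part: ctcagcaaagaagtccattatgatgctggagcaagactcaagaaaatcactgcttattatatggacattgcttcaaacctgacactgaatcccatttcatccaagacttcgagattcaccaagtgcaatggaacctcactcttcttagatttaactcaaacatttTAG
Gabrg3-202 exon 4: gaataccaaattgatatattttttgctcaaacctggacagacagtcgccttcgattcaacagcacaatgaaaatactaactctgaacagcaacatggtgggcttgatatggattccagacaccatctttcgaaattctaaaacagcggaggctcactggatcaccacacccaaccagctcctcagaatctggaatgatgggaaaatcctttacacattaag

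The next sequence is exon 9 of Gabrb2-205 (chr11:42602115-42602228, plus strand), 114 bases that Gabrb2-201 lacks and that raise the reading frame to 512 codons, against 474.
Gabrb2-205 exon 9: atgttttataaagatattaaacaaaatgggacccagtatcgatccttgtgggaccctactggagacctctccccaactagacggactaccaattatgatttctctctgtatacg

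Both Gabra5 transcripts with most counts are annotated as coding, and their transcription starts differ. Gabra5-201 starts at chr7:57510009 and Gabra5-202 starts farther downstream, at chr7:57509371. The RefSeq promoter window of Gabra5 (GRCm38.p6, chr7:57510010-57510309, minus strand) ends 1 base before the start of Gabra5-201 and 639 bases before that of Gabra5-202. The promoter table matched 3 of the 4 members, Gabra5, Gabrb2 and Gabrg3.
Gabra5 promoter window: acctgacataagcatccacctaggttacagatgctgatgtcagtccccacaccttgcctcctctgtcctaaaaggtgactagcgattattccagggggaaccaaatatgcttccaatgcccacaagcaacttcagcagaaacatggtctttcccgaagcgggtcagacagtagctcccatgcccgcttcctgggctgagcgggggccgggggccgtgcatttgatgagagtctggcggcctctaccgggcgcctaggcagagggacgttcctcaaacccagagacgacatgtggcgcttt
Searched on both strands for the TATA box TATAAA, the GC box GGGCGG, the cAMP response element TGACGTCA, the E box CACGTG and the EGR site GCGTGGGCG, the Gabra5 window held 0 matches. Among all 32851 promoter windows of this length, 13.6% held TATAAA, 35.7% held GGGCGG, 1.79% held TGACGTCA, 7.15% held CACGTG and 0.612% held GCGTGGGCG. The Gabrg3 window held 1 GC box, and the first of 3 Gabrb2 windows held 1 TATA box and 1 GC box.

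Libraries held 21027659 to 61631742 gene counts (median 26379948). In every one of the 63 libraries Xist and Ddx3y fitted the labelled sex and Alad fitted the labelled strain. The 10 choroid plexus markers stood apart between libraries, with a mean level of 0.73 to 8.25 log2 CPM per library, and 20 libraries (12 of DBA/2J, 8 of C57BL/6J) exceeded 5 on that scale. CA1 pyramidal cell and dentate gyrus granule cell markers were present in all libraries, with no tested marker at 0 throughout. Levels are given as counts scaled to a common library total (CPM) and, to compare genes, as CPM per kilobase of exon (RPKM). In this bulk tissue fewer cells of a type and less RNA per cell cannot be told apart.

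Among the 15 tested subunits the 4 members lay far apart in level per length. Gabra5 ranked first in both strains, with 62.8 ± 6.90 RPKM in DBA/2J (SD, n = 32) and 77.6 ± 8.99 RPKM in C57BL/6J (SD, n = 31). That was 21.5% of the summed level of the 15 subunits in DBA/2J and 26.0% in C57BL/6J. Gabrb2 had 14.4 ± 1.37 RPKM in DBA/2J and 13.8 ± 1.18 RPKM in C57BL/6J. Gabrd had 9.27 ± 0.766 RPKM in DBA/2J and 8.74 ± 0.940 RPKM in C57BL/6J. Gabrg3 was the lowest of the members, with 1.92 ± 0.251 RPKM in DBA/2J and 1.81 ± 0.222 RPKM in C57BL/6J. Together the 4 members made up 30.2% of the summed subunit level in DBA/2J and 34.2% in C57BL/6J.

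**Figure D1:**
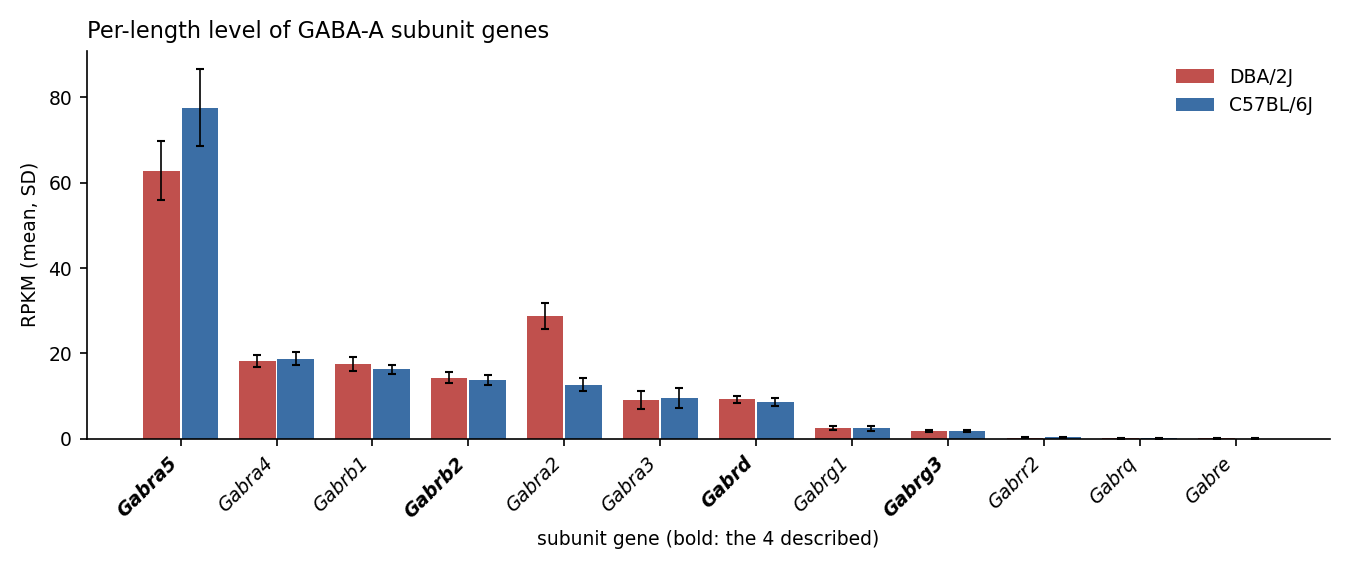
Bars give the mean RPKM of the members and of the other tested GABA-A subunit genes reported here, in DBA/2J (left bar, n = 32) and C57BL/6J (right bar, n = 31), with the SD between libraries; gene names in bold are the members. Gabra5 stands first at 62.8 and 77.6 RPKM and Gabrg3 is near the bottom at 1.92 and 1.81 RPKM.

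Gabra5, the alpha subunit, was lower in DBA/2J. In DBA/2J its level ran from a lowest 134.9 CPM over a median of 188.6 to a highest 229.9 CPM, and in C57BL/6J from 176.4 over 229.9 to 267.8 CPM. All 32 DBA/2J libraries lay below the C57BL/6J median, 7 of them lay below the lowest C57BL/6J library, and 29 of 31 C57BL/6J libraries lay above the DBA/2J median. The means were 186.8 ± 20.5 CPM in DBA/2J (SD, n = 32) and 230.7 ± 26.7 CPM in C57BL/6J (SD, n = 31). The log2 difference was -0.30 (SE 0.039, adjusted p = 3.9e-09, edgeR's quasi-likelihood test with Benjamini-Hochberg adjustment over all 19974 tested genes). Strain called 50% of all tested genes, 24.5% lower and 25.5% higher in DBA/2J, so that a call of a member is near what any gene had. Of the tested genes, 21.1% differed by more than Gabra5. The library titles carry a lower and a higher run of numbers whose meaning the labels do not give, called the first and the second round here, and the difference was -0.29 in the first and -0.32 in the second.

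Markers of dentate gyrus granule cells and of oligodendrocytes also differed by strain. Of 10 such markers, 7 were lower and 1 was higher in DBA/2J, with log2 differences of -1.46 for C1ql2 to 0.12 for Trpc6. Their mean level ran from 4.63 to 5.70 log2 CPM in DBA/2J (median 5.32) and from 5.21 to 5.90 log2 CPM in C57BL/6J (median 5.67). Across the 63 libraries, after removal of the group means, Gabra5 correlated with that mean at r = 0.61, with the mean of the striatum markers at -0.70 and with that of the neocortex markers at -0.69. With the mean of the CA1 pyramidal cell markers it correlated at 0.27, with that of the CA3 pyramidal cell markers at 0.03 and with that of the oligodendrocyte markers at -0.34. Of 7 tested CA1 markers 1 was higher and 2 were lower in DBA/2J (median log2 difference -0.06), and of 8 CA3 markers 1 was higher and 4 were lower (median -0.14). The 11 markers of oligodendrocytes were each called lower, with a median of -0.40. With the dentate gyrus marker level as a covariate the strain difference of Gabra5 was -0.10 (adjusted p = 0.10). With the oligodendrocyte marker level it was -0.37 (adjusted p = 1.3e-09), and with the striatum marker level it was -0.30. Without the 20 libraries above 5 in choroid plexus markers it was -0.25, in a fit that left 1 library in its smallest group. The part of tissue makeup in the Gabra5 difference was not tested beyond these values.

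Gabrb2, the beta subunit, was not called. It ran from 69.2 over a median of 92.4 to 103.0 CPM in DBA/2J and from 72.8 over 88.8 to 99.8 CPM in C57BL/6J, with 2 DBA/2J libraries below and 5 above all of C57BL/6J. The means were 91.3 ± 8.72 CPM in DBA/2J and 88.0 ± 7.51 CPM in C57BL/6J. The log2 difference was 0.06, with a 95% interval of -0.008 to 0.12 (adjusted p = 0.14). With genes summed from the transcript counts it was 0.13 (adjusted p = 5.2e-04), over 1.5 times the value from gene counts. With the oligodendrocyte marker level as a covariate it was 0.003 (adjusted p = 0.96).

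Gabrg3, the gamma subunit, was not called either. It ran from 18.8 over a median of 22.3 to 30.998 CPM in DBA/2J and from 18.2 over 21.0 to 29.3 CPM in C57BL/6J, and 23 of 32 DBA/2J libraries lay above the C57BL/6J median. The log2 difference was 0.09, with a 95% interval of 0.007 to 0.17 (adjusted p = 0.063). It passed the threshold with transcript sums (0.10, adjusted p = 0.028) and without any 1 of 12 libraries (5 of DBA/2J and 7 of C57BL/6J, adjusted p 0.033 to 0.049). Gabrg3 correlated across libraries with the mean of the striatum markers (r = 0.65 after removal of group means), and with that mean as a covariate the difference was 0.09 (adjusted p = 0.0092). With the dentate gyrus marker level it was 0.02 (adjusted p = 0.87).

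Gabrd, the delta subunit, was slightly higher in DBA/2J. It ran from 23.1 over a median of 26.5 to 30.6 CPM in DBA/2J and from 20.1 over 25.4 to 32.1 CPM in C57BL/6J. No DBA/2J library exceeded the highest or fell under the lowest C57BL/6J library, and 23 of 32 lay above the C57BL/6J median. The means were 26.7 ± 2.20 CPM in DBA/2J and 25.1 ± 2.70 CPM in C57BL/6J, with a log2 difference of 0.09 (SE 0.036, adjusted p = 0.041). The call was lost without any 1 of 18 libraries (8 of DBA/2J and 10 of C57BL/6J, adjusted p 0.051 to 0.071). It was also lost with no filter on low counts (adjusted p = 0.070) and in the first round alone (0.06, adjusted p = 0.39), while the second round alone gave 0.10 (adjusted p = 0.0498). Each of the 11 oligodendrocyte markers had a lower level in DBA/2J than in C57BL/6J, and with their mean as a covariate the difference was 0.05 (adjusted p = 0.39). With the dentate gyrus marker level it was 0.23 (adjusted p = 1.2e-04), and across libraries Gabrd correlated with that level at r = 0.49 after removal of group means. Gabrd also correlated with the mean of the CA3 markers at -0.49, of the choroid plexus markers at -0.43 and of the thalamus markers at -0.36. The part of any of these cell types in the Gabrd difference was not tested.

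**Figure D2:**
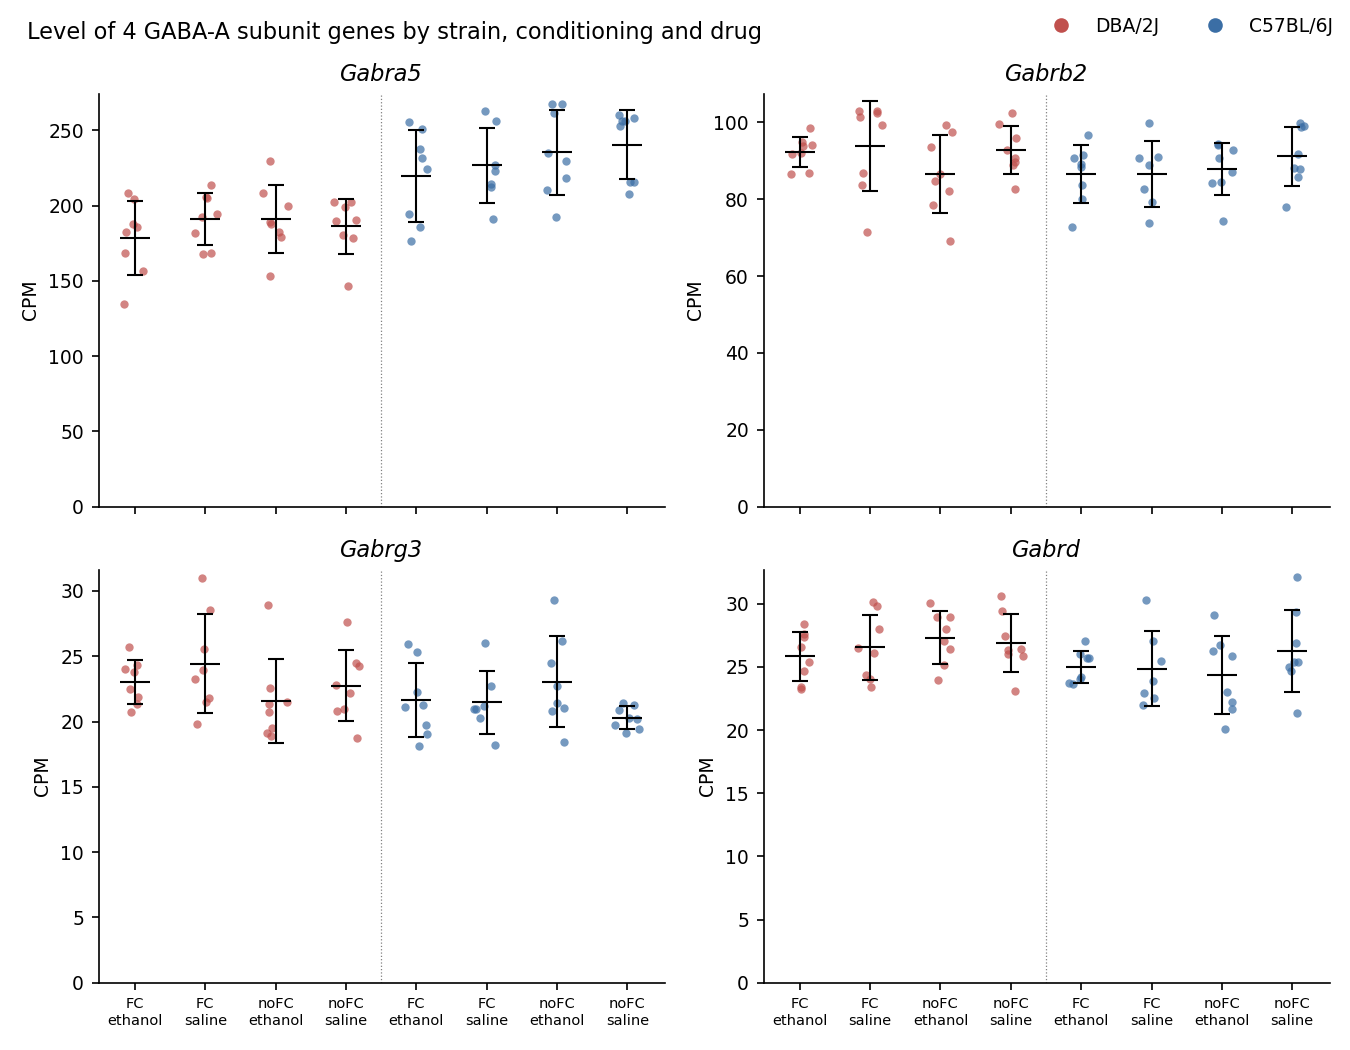
Each point is 1 library, red for DBA/2J and blue for C57BL/6J, by conditioning and drug, with CPM on the vertical axis from 0; black marks give the group mean and SD (n = 8, or 7 for FC saline in C57BL/6J). The Gabra5 means of the DBA/2J groups lie between 178.7 and 191.3 CPM and those of the C57BL/6J groups between 219.6 and 240.4 CPM, while the groups of the other genes overlap.

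With each strain split by conditioning and drug, no 2 neighbours in the order of the 8 group means differed by more than the larger of their SDs for any of the 4 members. For Gabra5 the widest gap between neighbours, 28.3 CPM, fell between the strains, all 4 DBA/2J groups lying below all 4 C57BL/6J groups. The order began at 178.7 ± 24.5 CPM for FC with ethanol in DBA/2J (SD, n = 8) and ended at 240.4 ± 22.8 CPM for noFC with saline in C57BL/6J (SD, n = 8). For Gabrb2 the 8 means lay within 86.4 to 93.8 CPM, for Gabrg3 within 20.3 to 24.4 CPM and for Gabrd within 24.4 to 27.3 CPM.

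Ethanol called none of the 4 members over both strains, where 0.546% of all tested genes were called. The log2 difference, ethanol minus saline, was -0.03 for Gabra5, with a 95% interval of -0.11 to 0.05. It was -0.04 for Gabrb2 (-0.11 to 0.02), 0.006 for Gabrg3 (-0.07 to 0.09) and -0.03 for Gabrd (-0.10 to 0.04). Adjusted p-values were 0.81 to 0.996, and none of the 4 had an unadjusted p under 0.05 in edgeR's test. Within DBA/2J, where 0.295% of genes were called, and within C57BL/6J, where 0.0901% were, no member was called either.

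Gabrg3 was the member whose ethanol values differed most in sign. In DBA/2J it averaged 22.3 ± 2.60 CPM with ethanol and 23.6 ± 3.30 CPM with saline (SD, n = 16 each), a log2 difference of -0.08. In C57BL/6J it averaged 22.3 ± 3.14 CPM with ethanol (SD, n = 16) and 20.8 ± 1.80 CPM with saline (SD, n = 15), a log2 difference of 0.10. The difference between the strains in the ethanol effect was -0.18 (SE 0.081, unadjusted p = 0.030, adjusted p = 1), which failed the correction over all genes, where 0.01% were called. It was -0.24 in the first round alone and -0.09 in the second. Without the 20 libraries above 5 in choroid plexus markers it was -0.29, over 1.5 times the value from all libraries, but that fit left 1 library in its smallest group.

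Conditioning called none of the 4 members, where 0.02% of all tested genes were called. The log2 difference, FC minus noFC, was -0.07 for Gabra5, with a 95% interval of -0.14 to 0.01. Gabra5 averaged 184.9 ± 21.4 CPM with FC and 188.7 ± 20.1 CPM without in DBA/2J (SD, n = 16 each), and 222.9 ± 27.3 CPM with FC (SD, n = 15) and 237.9 ± 24.9 CPM without (SD, n = 16) in C57BL/6J. The log2 difference was 0.002 for Gabrb2 (-0.06 to 0.07), 0.05 for Gabrg3 (-0.03 to 0.13) and -0.04 for Gabrd (-0.11 to 0.03), and no unadjusted p was under 0.05. Gabrg3 in DBA/2J averaged 23.7 ± 2.91 CPM with FC and 22.2 ± 2.95 CPM without, a log2 difference of 0.10 (unadjusted p = 0.073, adjusted p = 1). The conditioning effect within each strain, its difference between strains and the difference of the ethanol effect between FC and noFC called 0% of genes in edgeR's test, and so no member. At an unadjusted p under 0.05 there were 786 genes for conditioning in C57BL/6J, 670 in DBA/2J, 725 for the difference between strains and 592 for ethanol by conditioning. DESeq2 called 6 genes for conditioning in C57BL/6J and 0 in the other 3 comparisons.

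Sex called 0.2% of genes and no member. The log2 difference, male minus female, was -0.06 for Gabrb2 (95% interval -0.12 to 0.008), with 88.1 ± 9.41 CPM in males (SD, n = 31) and 91.3 ± 6.74 CPM in females (SD, n = 32). For the other 3 members it lay between -0.03 and -0.008. A difference of the strain effect between males and females was called for 0% of genes in edgeR's test, and for 3 genes by DESeq2. At an unadjusted p under 0.05 there were 710 genes (3.55% of those tested). The members had values of -0.02 to 0.05 and an adjusted p of 1 in edgeR's test. In 3440 fits of the 44 results other than the strain difference, under every alternative and with each library left out, the members had 0 calls, and the lowest adjusted p was 0.10.

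**Figure D3:**
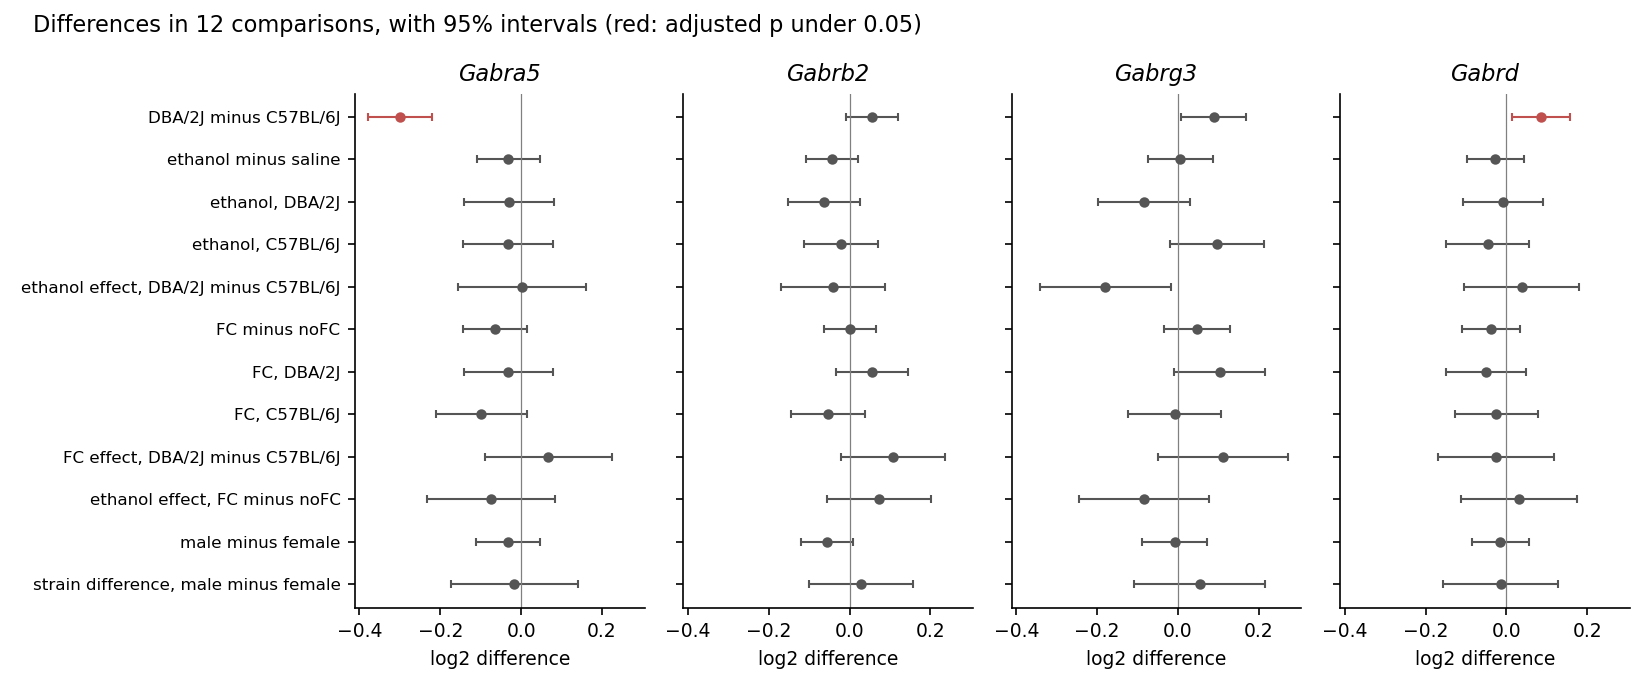
Points give the log2 difference of each member in 12 comparisons and lines the 95% interval from the edgeR fit, with red for an adjusted p under 0.05. The strain difference of Gabra5 (-0.30) and that of Gabrd (0.09) are the red points, and 44 of the 46 other intervals include 0.

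The transcripts of Gabrg3 differed between the strains although the gene was not called. Gabrg3-201, the short form whose last exon is printed above, made up 0.18% to 2.01% of the estimated counts of the gene in DBA/2J (median 0.83%) and 1.78% to 6.95% in C57BL/6J (median 4.03%). Of 32 DBA/2J libraries 30 lay below the lowest C57BL/6J library, and 30 of 31 C57BL/6J libraries lay above the highest DBA/2J library. The means were 0.88% ± 0.45 in DBA/2J (SD, n = 32) and 4.21% ± 1.06 in C57BL/6J (SD, n = 31), so the share in C57BL/6J was 4.79 times that in DBA/2J. All transcript shares given here are of estimated counts without correction for length, so they are not shares of molecules. Gabrg3-201 is 1724 bases long and Gabrg3-202 is 9767, so the short form is a larger part of the molecules than of the counts. A two-sided permutation test of the shares gave p = 1e-05, the smallest that 100000 resamples can give (adjusted p = 3.5e-05 over 7 transcripts). Transcripts entered this test by a minimum mean share in either strain, which Gabrg3-201 met in C57BL/6J only. Most of the 7 are pairs from the same gene, whose shares mirror each other, so they are not independent tests. Estimated counts were low, with 5.51 ± 2.77 per library in DBA/2J and 26.1 ± 10.3 in C57BL/6J. The share differed in both rounds, with 0.79% ± 0.43 in DBA/2J (SD, n = 16) and 4.46% ± 1.27 in C57BL/6J (SD, n = 15) in the first round. In the second round it was 0.97% ± 0.47 in DBA/2J and 3.98% ± 0.78 in C57BL/6J (SD, n = 16 each). The form was under the 5% share that the fit over all genes required, so it was outside that fit. With no minimum share its log2 difference relative to Gabrg3-202 was -2.43 (SE 0.19, adjusted p = 8.7e-20 by limma's diffSplice). Whether DBA/2J carries sequence differences in this exon that would lower its estimate was not tested.

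Gabra5 used its 2 main transcripts in different proportions. Gabra5-202 had 56.8% to 74.3% of the gene in DBA/2J (median 67.0%) and 54.0% to 68.4% in C57BL/6J (median 62.8%), and the strains overlapped widely. The means were 66.8% ± 3.87 in DBA/2J and 62.5% ± 3.88 in C57BL/6J, and those of Gabra5-201 were 32.7% ± 3.804 in DBA/2J and 36.7% ± 3.82 in C57BL/6J. The log2 difference of Gabra5-202 relative to Gabra5-201 was 0.26 (SE 0.071), with an adjusted p for the gene of 0.0025 by Simes' method in limma's diffSplice, where 25.7% of 9511 genes were called. Neither ethanol (adjusted p = 0.85, with 1.88% of genes called) nor conditioning (adjusted p = 0.95, with 0.568% called) called its transcript usage. With no minimum share the adjusted p for the strain difference of the gene was 0.049 by Simes' method. Neither main transcript passed in that fit, with adjusted p = 0.062 for Gabra5-202 and 0.093 for Gabra5-201 by limma's diffSplice.

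Gabrd-201, the coding form, had 78.7% ± 3.25 of the gene in DBA/2J and 79.7% ± 2.43 in C57BL/6J, with the noncoding Gabrd-203 making up most of the rest, and usage was not called (adjusted p = 0.46). Gabrb2-201 had 98.9% ± 0.55 in DBA/2J and 98.6% ± 0.94 in C57BL/6J. Gabrb2-205, with the extra exon, had 0.52% ± 0.53 in DBA/2J and 0.93% ± 0.92 in C57BL/6J, and the strains overlapped. Its estimated counts were low, with 0 to 58.0 per library in DBA/2J (median 11.7) and 0 to 111.6 in C57BL/6J (median 17.3). With no minimum share its log2 difference was -1.23 (SE 0.37, adjusted p = 0.014 by limma's diffSplice). A two-sided permutation test of the share of Gabrb2-201 gave p = 0.16 (adjusted p = 0.19 over 7 transcripts).

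**Figure D4:**
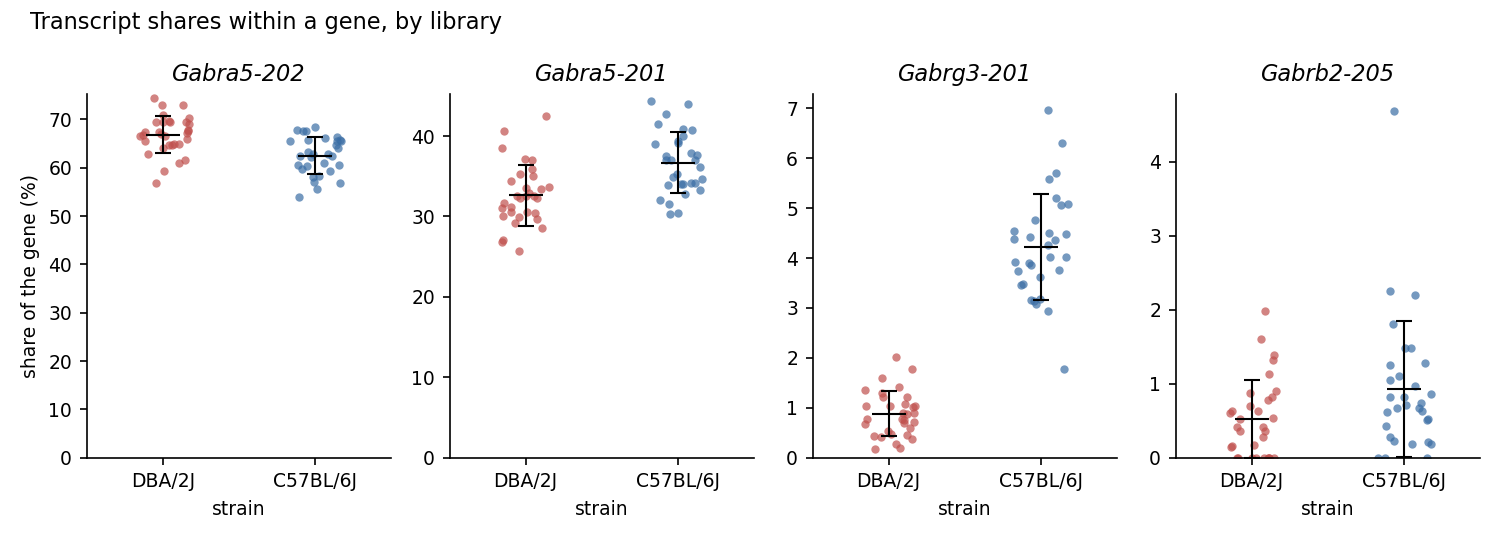
Each point is the share of a transcript in the estimated counts of its gene in 1 library, in percent, with DBA/2J left of C57BL/6J and black marks for mean and SD. Gabrg3-201 averages 0.88% in DBA/2J and 4.21% in C57BL/6J with almost no overlap, while the shares of Gabra5-202, Gabra5-201 and Gabrb2-205 overlap.

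The libraries of a group differed more in the members than in most genes of like level. The residual SD of log2 CPM around the group means was 0.16 for Gabra5, against a median of 0.10 among 921 genes of like level. It was 0.13 for Gabrb2, 0.16 for Gabrg3 and 0.14 for Gabrd, against medians of 0.10 to 0.11. Strain accounted for 45.5% of the variance of Gabra5, 9.51% of that of Gabrd, 5.70% of that of Gabrg3 and 3.56% of that of Gabrb2.

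The members varied together only in part. Of 12 relations between members within a strain, 2 had an adjusted p under 0.05 for Pearson's r, by permutation tests with 100000 resamples. In C57BL/6J, Gabra5 and Gabrg3 ran in opposite directions (r = -0.51, permutation p = 0.0028, adjusted p = 0.017; rho = -0.38, permutation p = 0.037, adjusted p = 0.092; n = 31). In DBA/2J the same pair had r = 0.03 (permutation p = 0.88, n = 32). Gabrb2 and Gabrg3 ran in the same direction in DBA/2J (r = 0.52, permutation p = 0.0024, adjusted p = 0.017; rho = 0.47, permutation p = 0.0068, adjusted p = 0.082; n = 32), while r was -0.18 in C57BL/6J (permutation p = 0.34, n = 31). Without the 2 libraries farthest from the median of the first gene, Pearson's r was -0.38 for Gabra5 and Gabrg3 in C57BL/6J (permutation p = 0.040, adjusted p = 0.16) and 0.41 for Gabrb2 and Gabrg3 in DBA/2J (permutation p = 0.023, adjusted p = 0.14), so neither call held without them. Leaving out the extremes of a gene also narrows its range, which can lower r by itself. After removal of the group means r was -0.61 for Gabra5 and Gabrg3 in C57BL/6J (permutation p = 0.00037, adjusted p = 0.0044) and 0.47 for Gabrb2 and Gabrg3 in DBA/2J (permutation p = 0.0074, adjusted p = 0.039). The values of rho were then -0.57 and 0.40 in that order. These permutations shuffled the residuals as if no group means had been fitted, so their p-values are too small and the calls from residuals are uncertain. Whether r differed between the strains was not tested.

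**Figure D5:**
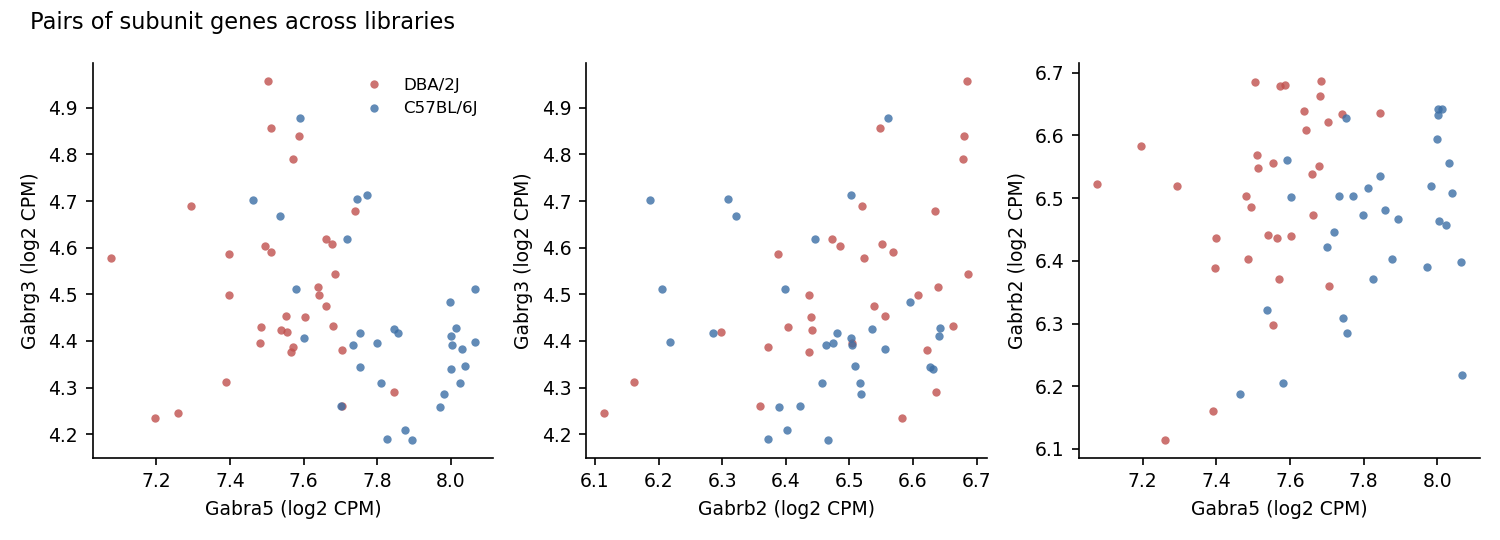
Each point is 1 library, red for DBA/2J and blue for C57BL/6J, with log2 CPM of the named genes on both axes. Gabra5 and Gabrg3 run in opposite directions in C57BL/6J (r = -0.51) and show r = 0.03 in DBA/2J.

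The genes most like each member across the 63 libraries, after removal of group means and among 12659 protein-coding genes, were as follows. Among the 5 genes most like Gabra5 were Chn1, Nckap1, Trim2 and Cap2 (r of 0.92 to 0.93). These r describe libraries that share tissue makeup and depth, and carry no test. Gabrg3 was most like Gad2, the gene of a GABA-synthesising enzyme (r = 0.85), and then Zcchc12, Col25a1, Ankrd34b and Sox1 (0.81). The part of tissue makeup in this likeness was not tested. Gabrd was most like Stk32c (0.74), then the potassium channel gene Kcnj4, Pla2g4e, Kcnj11 and the synaptic zinc transporter gene Slc30a3 (0.66 to 0.72). Gabrb2 was most like Nupl1 (0.74), Trim44, Mlh3, Tsr2 and Xkr4 (0.70 to 0.72). No member was among the 5 genes most like another member.

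Of the 8 tested protein-coding genes nearest to each member, strain called 3 to 5, near the 50% called over all tested genes. Among the 8 nearest tested protein-coding genes of Gabra5, 4 were called, 1 higher and 3 lower. Atp10a had a difference of -0.50, Oca2 of -1.45 and Herc2 of 0.07, while Ube3a (-0.004) was not called. Oca2 was low and uneven, with 0.51 ± 0.27 CPM in DBA/2J and 1.75 ± 2.44 CPM in C57BL/6J. Among the 8 neighbours of Gabrb2, 3 were called. Pttg1, the securin gene, had 1.68 ± 0.32 CPM in DBA/2J and 20.6 ± 1.61 CPM in C57BL/6J (log2 -3.61), Atp10b had -0.69 and the splicing factor gene Slu7 had 0.21. Of the 8 neighbours of Gabrg3, 5 were called, among them Gabra5 itself. Of the 8 neighbours of Gabrd 5 were called, among them Tmem52 (-0.71), Cfap74 (0.16, adjusted p = 0.056 without 1 FC saline male of DBA/2J), Gnb1 (0.07), Nadk (0.05) and Prkcz (-0.05).

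Over all 15 tested subunits, the calls by strain were 3 up in DBA/2J and 3 down, and 9 were not called, where 50% of all tested genes were called. The subunits had a median log2 difference of 0.04, against 0.005 over all tested genes. Beside Gabra5 and Gabrd they included Gabra2, the alpha2 gene, with 220.0 ± 24.0 CPM in DBA/2J and 97.2 ± 12.1 CPM in C57BL/6J (log2 1.18), Gabrb1 (0.10) and the rho gene Gabrr2 (-0.54, with 0.57 ± 0.18 CPM in DBA/2J and 0.83 ± 0.22 CPM in C57BL/6J). With 1 library left out the number called higher was 2 to 5. Ethanol and conditioning called 0 of the 15.

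Lists of genes that place, supply or modulate these receptors held calls by strain in both directions, where 25.5% of all tested genes were called higher and 24.5% lower. Of 22 genes for receptor anchoring and trafficking, 7 had a higher and 7 a lower level in DBA/2J (median log2 difference -0.006). Mdga1, a cell surface protein that restrains neuroligin 2, had 0.33, Nlgn2, which encodes that adhesion protein of inhibitory synapses, had 0.16, the receptor-associated Shisa7 had 0.17 and the transport adaptor Trak2 had -0.19. Of 8 genes for GABA synthesis, release, uptake and breakdown, 1 was higher and 1 was lower (Slc6a13, a transporter gene of the brain's borders, -0.53). All 5 tested genes of neurosteroid synthesis, which makes modulators of delta-containing receptors, were called, 2 higher and 3 lower (median -0.18). Srd5a1, the gene of the enzyme that reduces progesterone, had 10.8 ± 2.44 CPM in DBA/2J and 17.8 ± 2.89 CPM in C57BL/6J (log2 -0.72), and Akr1c14, the gene of the next enzyme, had -0.71, while Cyp11a1 had -0.18 and Tspo had 0.46. Of 4 chloride transporter genes 1 was higher (Clcn2, 0.10), and of 6 GABA-B receptor genes 1 was higher (Kctd12, 0.10) and 2 were lower (Gabbr1, -0.10, and Kctd12b, -0.14, a call lost without any 1 of 17 libraries). Ethanol and conditioning called no gene of these 5 lists.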

How the data were processed

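RNA was extracted from dorsal hippocampus, sequenced as 75-nt single reads from stranded mRNA libraries per the labels' protocols, and deposited by the authors as raw gene counts and as estimated counts per transcript. The submitters' processing notes name fastp, HISAT2, featureCounts, Salmon, DESeq2 and GRCm38; versions and the strand setting are not given in the sources used here. Genes were matched to GENCODE by identifier. Gene counts were scaled by TMM and tested with edgeR 4.0.16 (R 4.3.3, quasi-likelihood, 1 coefficient for each of 16 groups, all 63 libraries in 1 fit). The filter kept 19974 genes with enough counts (minimum 10 in the smallest group), p-values were adjusted over all of them (Benjamini-Hochberg) and the threshold was 0.05. DESeq2 1.42.0 was an alternative. Transcript counts were rounded to whole numbers and tested with limma 3.58.1 (voom, diffSplice), for transcripts with at least 10 counts in 3 libraries and 5% of their gene. Library totals were 21027659 to 61631742. Member counts per library began at 429 for Gabrg3, whose counting error at its mean count is 4.02% (Poisson coefficient of variation).

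The members and lists were chosen with earlier results of these data known. Named genes were the members, the tested subunits, up to 4 called genes per pathway list with the smallest p, 4 neighbours on each side and the 5 genes most like each member; some of these are not reported here. Models were tested on simulated data. Alternatives were other scalings, no filter, transcript sums, title rounds, a replicate block, tissue-marker covariates and leaving out libraries. The covariates for thalamus, striatum, dentate gyrus and oligodendrocytes and the fit without choroid-rich libraries were added after seeing the data.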

Additional observations from a re-analysis of the deposited data

Results flagged for a closer look

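In 60 checks of a member within a group of 4 libraries, 7 had a library whose gap to the others took up more of the range than Dixon's 95% limit, where chance flags about 1 in 20. Of the 7, 4 were for Gabrd, each with 1 high library among males. In C57BL/6J, 1 library had 27.1 CPM in FC ethanol, against 23.6 to 24.1 CPM in the others, and a library with the same title number had 29.3 CPM in noFC saline, against 25.0 to 25.4 CPM. In DBA/2J, 1 library had 30.1 CPM in FC saline, against 23.4 to 24.4 CPM, and a library with the same title number had 30.6 CPM in noFC saline, against 25.9 to 26.3 CPM. The labels do not say what the title number stands for.

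Gabra5 had 260.2 CPM in 1 library of noFC saline females of C57BL/6J, against 208.0 to 215.7 CPM in the others. Gabrb2 had 86.7 CPM in 1 library of FC saline females of DBA/2J, against 101.3 to 103.0 CPM. Gabrg3 had 26.0 CPM in 1 library of FC saline females of C57BL/6J, against 20.3 to 21.2 CPM.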

How the results depend on the processing

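The strain difference of Gabra5 kept its sign in all 14 alternatives and missed the threshold with the dentate gyrus covariate (-0.10). That of Gabrd was also positive in all 14 and missed the threshold with no filter (0.084), in the first title round alone (0.059) and with the oligodendrocyte covariate (0.048). That of Gabrb2 passed it with transcript sums (0.13) and with the choroid plexus covariate (0.065), and that of Gabrg3 with transcript sums (0.10), the thalamus covariate (0.096) and the striatum covariate (0.094). The cause was not tested.

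No member was called in the other comparisons under any alternative, and the values that changed sign, all log2 differences, were as follows. In the second title round alone the ethanol effect was 0.024 for Gabra5, 0.0039 for Gabrb2 and 0.10 for Gabrd, the ethanol in C57BL/6J effect was 0.10 for Gabrd, the ethanol in DBA/2J effect was 0.058 for Gabra5, 0.066 for Gabrb2 and 0.10 for Gabrd, the ethanol by strain effect was 0.12 for Gabrb2 and the conditioning effect was -0.0098 for Gabrb2. In that round the conditioning in C57BL/6J effect was 0.042 for Gabrg3, the conditioning in DBA/2J effect was -0.0064 for Gabrb2, the conditioning by strain effect was -0.0088 for Gabra5 and 0.033 for Gabrd, the ethanol by conditioning effect was 0.16 for Gabrg3 and -0.022 for Gabrd and the strain by sex effect was 0.072 for Gabra5 and 0.0014 for Gabrd. In the first title round alone the ethanol effect was -0.0013 for Gabrg3, the ethanol by strain effect was -0.051 for Gabra5, the conditioning effect was 0.012 for Gabrd, the conditioning in C57BL/6J effect was 0.068 for Gabrd and the conditioning in DBA/2J effect was 0.051 for Gabra5. In that round the sex difference was 0.022 for Gabrg3 and 0.0033 for Gabrd and the strain by sex effect was -0.038 for Gabrb2. With the striatum covariate the ethanol effect was -0.0011 for Gabrg3, the ethanol by strain effect was -0.052 for Gabra5 and the conditioning in DBA/2J effect was 0.017 for Gabra5. With the dentate gyrus covariate the ethanol effect was -0.0044 for Gabrg3, the ethanol in DBA/2J effect was 0.0099 for Gabrd, the conditioning in C57BL/6J effect was 0.011 for Gabrd, the strain by sex effect was 0.039 for Gabra5 and 0.023 for Gabrd and the strain difference was -0.20 for Gabrg1, 0.096 for Gabra4 and -0.56 for Gabrq. Without the 20 choroid-rich libraries the ethanol in DBA/2J effect was 0.022 for Gabrd, the conditioning by strain effect was 0.061 for Gabrd, the ethanol by conditioning effect was -0.027 for Gabrb2 and 0.031 for Gabrg3, the strain by sex effect was 0.054 for Gabra5 and 0.018 for Gabrd and the strain difference was 0.025 for Gabra4. With the oligodendrocyte covariate the ethanol in DBA/2J effect was 0.0050 for Gabrd and the conditioning effect was -0.0082 for Gabrb2. With upper quartile scaling the ethanol by strain effect was -0.0015 for Gabra5. With title round as a term the ethanol by strain effect was -0.0044 for Gabra5. With the thalamus covariate the ethanol by strain effect was -0.0032 for Gabra5, the conditioning in C57BL/6J effect was 0.0012 for Gabrg3 and the strain by sex effect was 0.017 for Gabra5 and 0.0072 for Gabrd. With transcript sums the conditioning effect was -0.0032 for Gabrb2. With the choroid plexus covariate the conditioning in DBA/2J effect was 0.014 for Gabra5 and the strain by sex effect was -0.025 for Gabrb2. With each library left out in turn, keeping the genes tested, Gabra5 ranged over -0.026 to 0.033 for ethanol by strain and -0.045 to 0.014 for strain by sex. For conditioning Gabrb2 ranged over -0.011 to 0.013. Gabrd ranged over -0.048 to 0.0041 for conditioning in C57BL/6J and -0.024 to 0.014 for ethanol in DBA/2J. The strain difference of Gabrd kept its sign in these fits (0.076 to 0.10) but lost its call in 18 of them.

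With a library left out, signs also changed for Gabrd in strain by sex (-0.048 to 0.0050). For Gabrg3 they changed in conditioning in C57BL/6J (-0.032 to 0.014), in ethanol (-0.0090 to 0.023) and in sex (-0.019 to 0.0091). The strain difference of Gabrg3 kept its sign (0.071 to 0.099) and passed the threshold in 12 of these fits. Of the relations between members in DBA/2J, r of Gabra5 and Gabrb2 passed the threshold from residuals (0.43) and without the 2 farthest libraries (0.57), and r of Gabrb2 and Gabrd from residuals (0.43). The p-values from residuals are too small, because their permutations took no account of the fitted group means, so the passes from residuals are uncertain. Without the 2 farthest libraries r of Gabra5 and Gabrg3 was -0.067 in DBA/2J and -0.38 in C57BL/6J, and r of Gabrb2 and Gabrg3 in DBA/2J was 0.41. All 12 fits of transcript usage other than those leaving out a library gave the same call by the adjusted p of the gene. Numbers of genes called moved by over 1.5 times in some fits. For ethanol, 109 genes, they were 66 with no filter, 11 and 34 in the title rounds and 59 without choroid-rich libraries. For ethanol in DBA/2J, 59 genes, they were 15 to 109, the highest with the replicate block, and 97 with DESeq2. For ethanol in C57BL/6J, 18 genes, they were 0 and 1 in the title rounds and 11 without choroid-rich libraries. For sex, 40 genes, they were 17 to 25, for conditioning, 4 genes, 0 to 8, and for ethanol by strain, 2 genes, 0 to 6. Of the subunits, 3 were called higher, and 5, 6 and 5 with transcript sums, the thalamus and the striatum covariates; 3 were called lower, and 5 with the oligodendrocyte covariate. With the title number as a replicate block the strain, sex and strain by sex comparisons could not be fitted, because each number lies within 1 strain and sex. In the comparisons it could fit, the block called no member and gave -0.182 for the ethanol by strain effect of Gabrg3. No label gives the meaning of this number, so the numbers were not taken to pair the libraries. Each number held libraries of 1 strain and sex, with 1 for each combination of conditioning and drug, except 1 number that lacked FC saline. Should same-numbered libraries share more than strain and sex, the strain and sex tests would rest on fewer independent units than libraries. Their p-values would then be too small. Not every same-numbered pair of libraries of different groups correlated over 0.1, but a true block need not show that, so pairing was left undecided. Of same-numbered pairs 45 of 93 correlated over 0.1 (-0.68 to 0.66, median 0.07), against 92 of 279 pairs of different number (median -0.02). As a hint from the data, 28 of 63 libraries (44.4%) correlated best with their own number, which 25.0% of the libraries they were set against carried. Precision is limited most for Gabrg3-201, with 1.0 to 62.7 estimated counts per library.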
